A study of Rattus norvegicus with 6 samples.

Results

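Choroid plexus epithelial cells of sham rats were taken from single-cell RNA libraries by their transcripts. A barcode belonged to them when it came from a sham library, held at least 500 UMIs and 200 genes with at most 20% mitochondrial UMIs, carried at least 50 Ttr UMIs per 10000 UMIs, and had a UMI for at least 3 of Enpp2, Clic6, Kcnj13, Mfrp, Sostdc1 and Htr2c. A UMI, or unique molecular identifier, marks 1 captured transcript. The rule took 689 of 19240 kept sham barcodes, and 38685 barcodes were kept in the whole series. The series holds 6 droplet libraries of transcript 3′ ends from the brain of Sprague Dawley rats, and its title names the pons after stroke. A sham group has 3 libraries and a pontine infarction group has 3. All 6 carry the same age label, postnatal day 21, and whether surgery or sampling took place then is not stated. The labels do not tie a library to a single rat, so the spread between libraries may be technical in part.

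The choroid plexus is a folded sheet of epithelium over a core of vessels in each brain ventricle. Its cells secrete cerebrospinal fluid by moving sodium, chloride, bicarbonate and water from blood to ventricle, and tight junctions between them form the barrier between blood and that fluid. They also make carrier proteins, above all transthyretin (Ttr), which binds thyroid hormone and the retinol-binding protein, and they carry folate, vitamin C and other solutes into the brain.

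The yield of these barcodes differed strongly between libraries. Sham 1 held 195 of 6025 kept barcodes, or 3.24% (95% Wilson interval 2.82% to 3.71%). Sham 2 held 478 of 6484, or 7.37% (6.76% to 8.03%), and sham 3 held 16 of 6731, or 0.238% (0.146% to 0.386%). These intervals cover counting error only, and none of the 3 overlaps another. The same rule found 0 of 5977 barcodes in infarction 1, which allows a share of up to 0.0502% (3 counts), 2 of 7401 in infarction 2 and 2 of 6067 in infarction 3. Every sham library lay above every infarction library, with a mean of 3.62% ± 3.58 (SD, n = 3) against 0.0200% ± 0.0176 (SD, n = 3). Enumerating all 20 ways to assign libraries to groups, a two-sided exact permutation test gave p = 0.1 for this difference of -3.60 percentage points, the smallest value that 3 against 3 can reach. The rule was written for sham libraries with earlier results of these data known. The p-value therefore describes the order of the libraries and gives no independent support for a difference. Without sham 2 the difference was -1.72 points, and without sham 3 it was -5.28 points. With barcodes gated as smooth muscle or pericyte left out of the denominator it was -10.1 points.

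**Figure D1:**
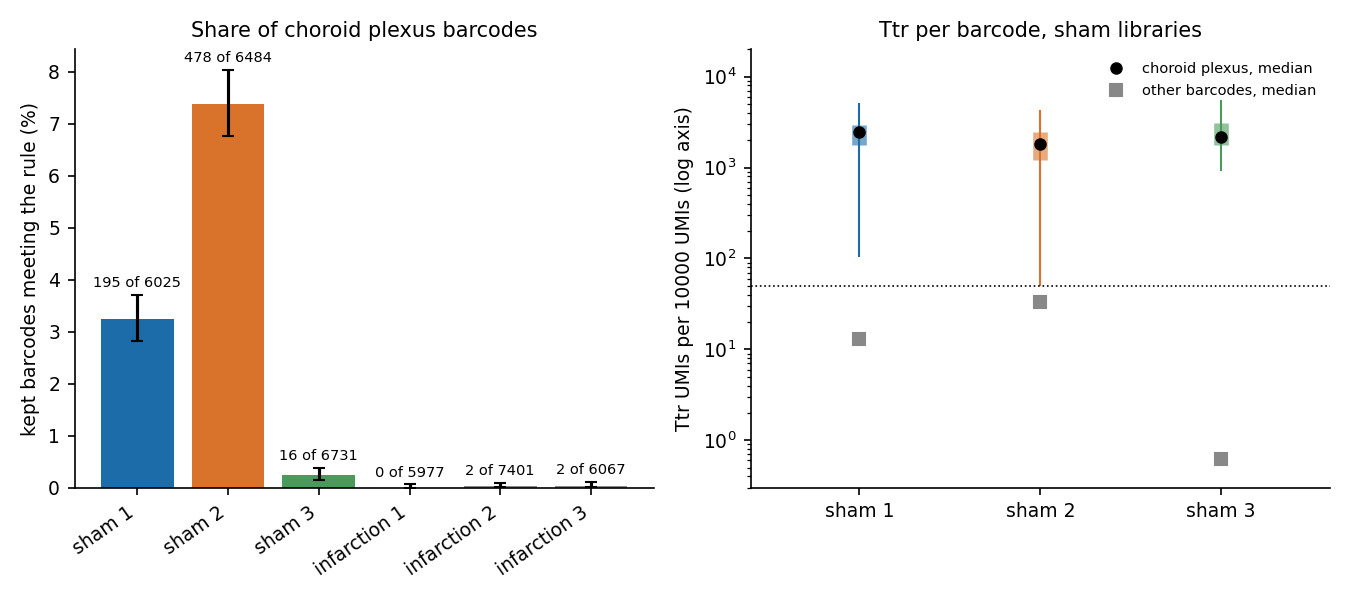
Left, percentage of kept barcodes that met the choroid plexus rule in each of the 6 libraries, with 95% Wilson intervals and the counts above the bars: sham 2 is highest at 7.37% and the infarction libraries lie at or near 0. Right, Ttr UMIs per 10000 UMIs (log axis) in sham choroid plexus barcodes (dot, median; thick bar, quartiles; thin line, range) and the median of the other kept barcodes (square), with the rule's limit of 50 as a dotted line: the other barcodes of sham 2 lie closest to the limit, at 32.8.

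The barcodes were deep. Their median was 31887 UMIs in sham 1, 31356.5 in sham 2 and 21115.5 in sham 3, while the other kept barcodes had medians of 7255.5, 7564.5 and 7413. The 195 barcodes of sham 1 held 13.9% of that library's kept UMIs, and the 478 of sham 2 held 25.3%. In sham 3 the 16 barcodes held 0.735%, which was 391295 UMIs, so that 3 UMIs there already stand for 7.67 CPM, the field's unit of counts scaled to a fixed library total. A further 88, 75 and 8 barcodes of sham 1 to 3 met the marker criteria but exceeded the mitochondrial limit. Between any pair of libraries 7 to 18 kept barcodes had the same sequence, and none of these shared sequences belonged to a choroid plexus barcode in both libraries.

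Ttr transcripts were also found outside these barcodes. The other kept barcodes of sham 1 had a median of 12.9 Ttr UMIs per 10000, those of sham 2 had 32.8 and those of sham 3 had 0.615. The order of these medians is the order of the yields. Barcodes with the markers of microglia, which do not make transthyretin, carried Ttr at 0.714% of the choroid plexus level in sham 1, 1.97% in sham 2 and 0.0685% in sham 3. In sham 2 the barcodes taken reached down to the limit: 49 of them had 50 to 100 Ttr UMIs per 10000, with a median of 68.0, while sham 1 and sham 3 had none in that range. Among sham barcodes with at least 3 of the 6 further genes, 12 lay just inside the limit, at 50 to 60, with a median of 53.9. Just outside it, at 40 to 50, lay 30 such barcodes with a median of 43.5. Of all 689 barcodes, 614 had at least 500 Ttr UMIs per 10000 and 565 had a UMI for all 6 further genes, while 73 had exactly 3 of them. Many more barcodes were past the Ttr limit without meeting the rule, 333, 1582 and 15 in sham 1 to 3. In all, 280 of these had exactly 2 of the further genes.

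The 7 genes that define the cells were similar in level in the 3 sham libraries. Levels are CPM of counts summed over the barcodes of a library, and since 3′ ends are counted they are not divided by transcript length. Ttr stood at 256390.5, 212765 and 215668 CPM in sham 1 to 3. Per barcode, its median was 2434 UMIs per 10000 in sham 1, 1792 in sham 2 and 2151 in sham 3. Enpp2, which encodes autotaxin, the enzyme that makes lysophosphatidic acid, stood at 6013, 7039.9 and 7485 CPM. Clic6, a chloride intracellular channel family gene, had 2204, 2499 and 2635 CPM. Kcnj13, an inwardly rectifying potassium channel of transporting epithelia, had 1034, 1198 and 1229 CPM. Mfrp, a membrane frizzled-related protein gene whose reads may not be separable from its neighbour C1qtnf5, had 3014, 2823 and 2640.0 CPM. Sostdc1, a secreted antagonist of BMP and Wnt signals, had 1937, 2052 and 2295 CPM. Htr2c, the serotonin 2C receptor, had 850.2, 1113 and 1107 CPM. The highest library exceeded the lowest by 1.14 times for Mfrp and by 1.31 times for Htr2c, and the other 5 rule genes lay between these. The other sham barcodes held a mean of 3.96 CPM (Htr2c) to 28.9 CPM (Enpp2) of the 6 further genes, and 1529 CPM of Ttr. These genes chose the barcodes, so their levels are a description.

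Across all genes, 414 of 7698 with a mean of at least 10 CPM (5.38%) were at least 4-fold higher in choroid plexus barcodes than in the other barcodes in each of the 3 sham libraries. Another 584 (7.59%) were at least 4-fold lower in each. These shares stand beside the counts of the gene lists below. Only list genes past the same 10 CPM filter could be called, while list sizes and medians cover all list genes in the files. Ratios have 5 CPM added to both sides, and none was tested, because the barcodes were chosen from the same counts. The ratios also depend on what the other barcodes were: 3733, 3230 and 3087 of them met a smooth muscle gate in sham 1 to 3.

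**Figure D2:**
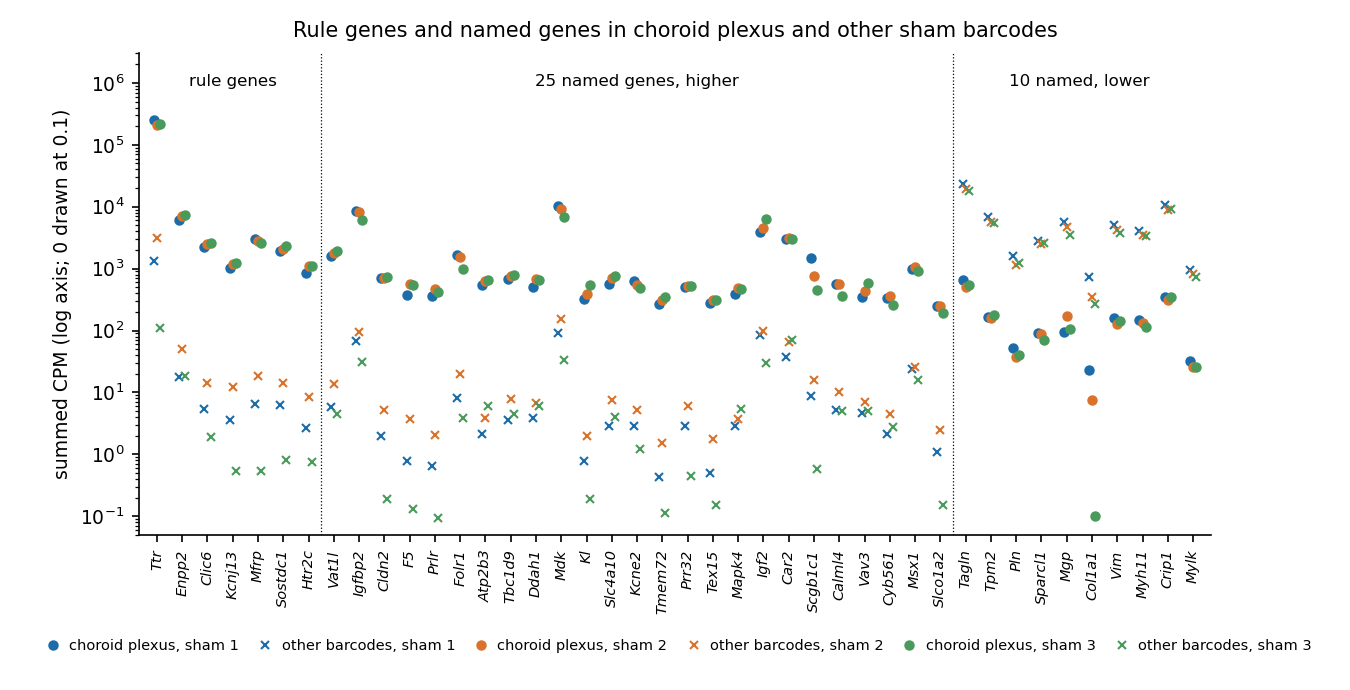
Summed CPM (log axis; 0 drawn at 0.1) of the 7 rule genes, the 25 named genes that were higher and the 10 that were lower, in choroid plexus barcodes (circles) and other barcodes (crosses) of the 3 sham libraries. Circles of 1 gene lie close together, Scgb1c1 spreading most among the higher genes, and the crosses of sham 3 lie lowest for most of the higher genes.

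Genes outside the rule with the highest ratios included secreted factors, transporters and receptors. Igfbp2, a binding protein for insulin-like growth factors, stood at 8415, 8309 and 6116 CPM against 66.7, 93.6 and 31.3 CPM in the other barcodes, a log2 ratio of 6.89 ± 0.50 (SD, n = 3). Its ligand gene Igf2 had 3887, 4522 and 6325 CPM, with a log2 ratio of 6.13 ± 1.18. With mitochondrial genes and unnamed gene models left out, Mdk, which encodes the heparin-binding growth factor midkine, had the highest mean level after Ttr. It stood at 10097, 9075 and 6836 CPM, though Cst3, Enpp2 and Clu exceeded it in sham 3. Both Igfbp2 and Mdk were lowest in sham 3, and Igf2 was highest there. Vat1l had 1606, 1777 and 1906 CPM and the highest ratio of the named genes outside the rule, 7.15 ± 0.56 on the log2 scale. F5, coagulation factor V, had 379.9, 575 and 534 CPM against 0.787, 3.70 and 0.132. Scgb1c1, a secretoglobin gene, had 1463, 770.5 and 455 CPM.

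The genes with the lowest ratios were genes of muscle and connective tissue. Tagln, an actin-binding protein of smooth muscle, had 649, 504 and 547 CPM against 23252, 19664 and 18169 CPM in the other barcodes, a log2 ratio of -5.16 ± 0.11. Myh11, the smooth muscle myosin heavy chain, had a ratio of -4.76 ± 0.07, Col1a1, a collagen chain, -5.11 ± 0.60, and Vim, the filament protein vimentin, -4.89 ± 0.17. Tpm2, Pln, Sparcl1, Mgp, Crip1 and Mylk completed the 10, with mean ratios from -5.17 to -4.67.

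Ion and water transport genes were the list most often higher. Of 29 genes, 18 were at least 4-fold higher in every sham library and 1 was lower, with a median log2 ratio of 3.26 against 0.04 for all genes tested. Slc12a2, the sodium-potassium-chloride cotransporter, had 746, 881 and 1176 CPM and a ratio of 3.26 ± 0.28. Its regulator kinase gene Stk39 had a ratio of 3.43 ± 0.38. Among bicarbonate transporters, the sodium-driven exchanger Slc4a10 had 559, 693 and 764 CPM (6.13 ± 0.31), the anion exchanger Slc4a2 had 589.7, 644 and 511 CPM (4.47 ± 0.13), and the cotransporter Slc4a5 had 75.7, 90.1 and 174 CPM (4.42 ± 0.63). Slc4a7, another bicarbonate cotransporter, was not past the fold, at 18.1 against 15.6 CPM.

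Carbonic anhydrases, which make the bicarbonate, were higher as well. Car2, the cytosolic enzyme, had 3051, 3090.4 and 3028 CPM, and the membrane enzymes Car12 and Car14 averaged 142 ± 47.3 and 41.5 ± 8.30 CPM (SD, n = 3). The water channel Aqp1 had 296, 441 and 319 CPM against 13.8, 21.6 and 5.60 CPM, while Aqp4, the water channel of astrocytes, had 2.03, 7.48 and 7.67 CPM against 57.8, 48.4 and 143 and was the only lower gene of the list. Potassium channel genes among the higher ones were Kcne2, a channel subunit at 622, 542 and 491 CPM, its partner Kcnq1 at a mean of 29.2 CPM, and Kcnk1 at 162 CPM. The calcium-permeable channels Trpv4 and Trpm3 had log2 ratios of 4.34 ± 0.14 and 3.56 ± 0.18, and the calcium pump Atp2b3 had 6.10 ± 0.19. Slc12a4 (2.31 ± 0.06) also passed the fold. The chloride channel gene Cftr had no UMI in these barcodes, which allows up to 0.123 CPM over the 3 libraries (3 counts). Its mean in the other sham barcodes was 0.00631 CPM, so these counts barely hold the gene in any cell. Fxyd1, a modulator of the sodium pump, at 1651 ± 504 CPM, was abundant but less than 4-fold above the other barcodes in each library. Atp1b1, a beta subunit of that pump, at 1901 ± 68.6 CPM, missed the fold in sham 1 alone, with log2 ratios of 1.44, 2.01 and 2.09.

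Detection per barcode was compared at 1 depth, because these barcodes were deeper than others. With every barcode thinned to 2000 UMIs (29, 25 and 0 shallower ones left out in sham 1 to 3), Aqp1 was found in 44.0%, 50.1% and 31.2% of choroid plexus barcodes and in 0.508%, 0.434% and 0.137% of microglia-gated ones. Without thinning the choroid plexus shares were 83.6%, 84.1% and 93.8%. Cldn2 was found in 63.9%, 64.2% and 81.2% of thinned choroid plexus barcodes, against 1.27%, 0.868% and 0% of microglia-gated barcodes (0 of 1465 in sham 3). The median depth before thinning was 5584.5 to 5995 UMIs in the microglia-gated barcodes.

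Solute carriers and uptake receptors came next, with 14 of 28 genes higher and 1 lower (median log2 ratio 2.02). Folr1, the folate receptor that carries folate across this epithelium, had 1671, 1529.7 and 999 CPM against a mean of 10.6 CPM in the other barcodes. Slc19a1, the reduced folate carrier, had a ratio of 2.75 ± 0.14, and Slc23a2, a vitamin C transporter, 2.89 ± 0.15. Organic anion carriers differed among themselves: Slco1a2 had 249.6, 250.1 and 192 CPM (5.25 ± 0.14), whereas its close relative Slco1a4, a transporter of brain endothelium, had at most 0.663 CPM and was lower (-3.17 ± 0.89). Reads of the Slco1a genes may be split between near-identical copies. The organic anion transporter Slc22a8 had 209.9, 157 and 256 CPM, and the drug exporter Abcc4 had 32.5, 37.9 and 30.7 CPM. The glucose transporter Slc2a12 was higher (4.16 ± 0.44), while Slc2a1, the main glucose transporter of the blood-brain barrier, averaged 57.5 ± 2.40 CPM against 104 CPM in the other barcodes. Slc29a4, Slc16a8, Slc13a4 and Lrp8 were also among the higher genes, with log2 ratios of 3.29 to 3.59.

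Tight junction and epithelial genes gave 8 higher and 1 lower of 23 (median log2 ratio 1.98). Cldn2, which forms pores for cations and water between cells, was at 704, 717 and 741 CPM against 1.99, 5.24 and 0.189 CPM, a log2 ratio of 6.66 ± 0.51. Cldn1 followed at 211, 208 and 256 CPM (5.15 ± 0.36). Cldn5, the claudin of endothelium, was lower, at 0.405, 2.17 and 0 CPM against 122, 346 and 108 CPM. The keratins Krt8 and Krt18, filament proteins of simple epithelia, had mean levels of 194 and 246 CPM. Both were lower than in the ependymal-gated barcodes described below, which had means of 567 and 458 CPM. The junction plaque genes Cgn and Tjp3, the polarity gene Crb3 and Ezr, which links membrane and actin in microvilli, had log2 ratios of 3.63, 3.26, 4.62 and 4.51. Tjp3 too was lower than in ependymal-gated barcodes, at a mean of 66.1 against 391 CPM. The widely expressed scaffold gene Tjp1 averaged 50.3 CPM against 87.1 CPM and did not reach the fold. Cldn3, at 17.1 against 0.117 CPM, lay under the filter on low values.

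Of 19 secreted and carrier proteins, 16 of them past the filter, 9 were higher and 1 was lower (median log2 ratio 2.14). The shares over all genes were 5.38% and 7.59%. Besides Igf2 and Igfbp2, the chaperone clusterin (Clu) stood at 6171, 6249 and 7342 CPM, and transferrin (Tf), the iron carrier of plasma and cerebrospinal fluid, at 1622, 1387 and 1380.0 CPM. The protease inhibitor gene Spint2 had 1783 ± 166 CPM, Wfikkn2 144 ± 34.7, Cab39l 181 ± 18.5, Calml4 498 ± 119 and Bmp7, a BMP ligand, 26.3 ± 7.62. Cystatin C (Cst3), a protease inhibitor abundant in cerebrospinal fluid, had 3826, 5819.7 and 10460.1 CPM but 10745, 22249 and 31009 CPM in the other barcodes, and its order over the libraries was the same in both. Apoe, the apolipoprotein of astrocytes and microglia, was lower, at 60.6, 202 and 63.9 CPM against 2136, 1998 and 2456.

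Thyroid hormone and retinoid genes gave 5 higher of 17 (median log2 ratio 0.24), with 10 past the filter, against 5.38% higher over all genes. The thyroid hormone transporter Slco1c1 had 508 ± 114 CPM, and the amino acid transporter Slc7a8 had 121 ± 25.7. Stra6, the membrane receptor that takes up retinol, had 159.6, 153 and 204 CPM (4.78 ± 0.29). The retinal-oxidising enzymes Aldh1a1, Aldh1a2 and Aldh1a3 had means of at most 0.241 CPM. Rbp4, the retinol carrier of plasma and partner of transthyretin, had no UMI in any of these barcodes.

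Receptor genes gave 4 higher and 1 lower of 17 (median log2 ratio 0.15), with 11 past the filter. Over all genes 5.38% were higher and 7.59% lower, so the 1 lower gene is near the background. Prlr, the prolactin receptor, was at 361, 462 and 427 CPM against 0.656, 2.07 and 0.0946 CPM. Kl, which encodes klotho, the co-receptor of FGF23, was at 326, 388 and 542 CPM. Lepr, the leptin receptor, averaged 59.6 ± 7.90 CPM and Fgfr2, a fibroblast growth factor receptor, 260.2 ± 18.8. The vasopressin receptor Avpr1a was at 0.540, 0.663 and 0 CPM against 33.2, 21.3 and 26.3 and was lower.

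Among 13 transcription factor genes in the files, Msx1, Lmx1a and Meis1 were higher and none was lower. Msx1, a homeobox gene of the dorsal midline, had 1002, 1045 and 905 CPM (5.22 ± 0.19), and Lmx1a, a homeobox gene of the roof plate from which the hindbrain plexus arises, had 91.8, 97.7 and 48.6 CPM (3.81 ± 0.53). Meis1 had 40.9, 49.6 and 86.9 CPM. Against the ependymal-gated barcodes described below, only Lmx1a of these genes was past the fold. Msx1 had 985, 429.9 and 403 CPM there, and Meis1 averaged 58.9 CPM there against 59.1 CPM in choroid plexus. Otx2, the homeobox gene best known for keeping choroid plexus identity, had 0 UMIs in all kept barcodes of the 6 libraries. The files list 25399 genes, and 19105 had a UMI in any kept barcode, so many listed genes were never counted.

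Promoters of the rule genes and the 25 named genes were searched because these genes were high together in 1 cell type. RefSeq (GRCr8) gave promoters for 21 of the 32, and the build behind the counts is not given in the sources used here. The 250 bases before the start were read on both strands for TAATCC, a site bound by OTX-type homeobox proteins, TAATTG, bound by MSX-type ones, and GTTGCC, an RFX half-site. Each was found in 2 of the 21 promoters, against 6.33%, 7.38% and 9.90% of all 27457 promoters of the same length. With 2 of 21, these shares are near the background. Vat1l, with the highest ratio of the named genes outside the rule, held the OTX-type letters (read on the opposite strand as GGATTA) at chr19:59103558-59103617, plus strand. Kcnj13 held the MSX-type letters at chr9:95519069-95519128, minus strand. The matches are in capitals, and a match is a description of the letters, not a site.
Vat1l: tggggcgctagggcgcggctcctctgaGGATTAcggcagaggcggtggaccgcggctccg
Kcnj13: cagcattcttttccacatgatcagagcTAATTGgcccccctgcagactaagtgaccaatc

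**Figure D3:**
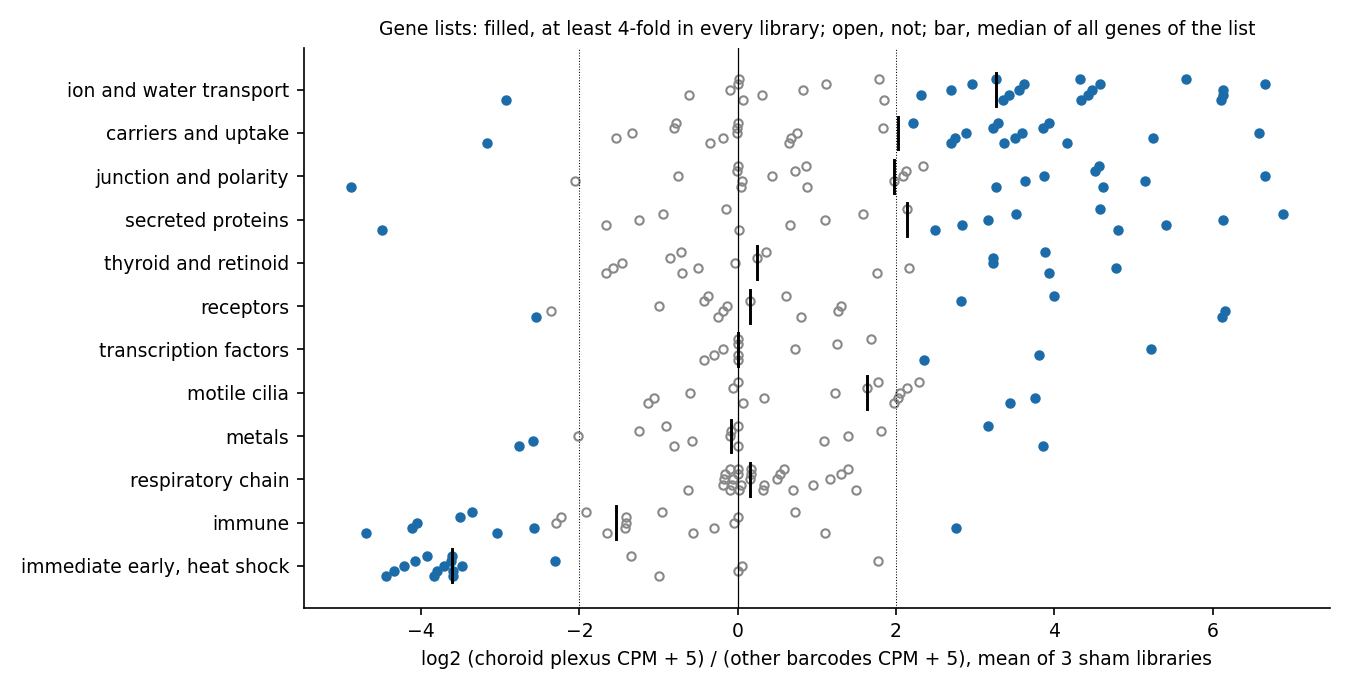
Log2 ratio of choroid plexus to other sham barcodes (CPM with 5 added, mean of 3 libraries) for every gene of 12 lists. Filled points were at least 4-fold apart in every library, bars are medians over all genes of a list, and dotted lines mark a 4-fold ratio: transport genes lie mostly to the right, immediate early genes to the left.

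Immune and immediate early genes lay on the low side of the ratios to all other barcodes. Of 22 immune genes, 17 of them past the filter, 7 were lower and 1 was higher (median log2 ratio -1.54). Over all genes 7.59% were lower and 5.38% higher, so the 1 higher gene is near the background. The MHC class II genes Cd74, RT1-Da and RT1-Ba had ratios of -4.70, -4.11 and -3.51, and the complement gene C3 had -3.35. Cxcl12 and Ifngr1 were also lower. Lcn2, an iron-scavenging acute phase protein, was the higher gene, at 40.4, 36.7 and 40.9 CPM against 1.29, 2.54 and 0.871. Of 19 immediate early and heat shock genes, 14 were lower and none was higher (median log2 ratio -3.61). Fos, a subunit of the AP-1 transcription factor, had 98.3, 81.4 and 209.6 CPM, against 3238, 4181 and 3529 CPM in smooth muscle-gated barcodes, 1180.4, 872 and 771 CPM in microglia-gated ones and 84.4, 55.9 and 49.5 CPM in astrocyte-gated ones. In sub-clusters 1 to 4 it was 55.1, 10.9 and 54.6 CPM. In sham 3 the level over all choroid plexus barcodes was near that of the endothelial gate (211 CPM) and the pericyte gate (186 CPM). The constitutive chaperones Hspa8 (948, 962 and 1081 CPM) and Hsp90aa1 (714, 759.8 and 785 CPM) were not lower. Hspa1a was (89.9, 113 and 105 CPM), with reads that its copy Hspa1b, at 0 UMIs here, may share.

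Ependymal cells line the ventricles next to the choroid plexus and carry motile cilia. Outside the rule, only 11, 16 and 36 barcodes of sham 1 to 3 met the ependymal gate, at least 4 of the 7 marker genes in the files, so this comparison is coarse. Choroid plexus barcodes also met the same gate, more of them in sham 1 and 2 (60 and 114) and fewer in sham 3 (2), and they stayed in the choroid plexus sums. Against the ependymal-gated barcodes outside the rule, 266 of 7911 genes (3.36%) were at least 4-fold higher in choroid plexus in every library. Another 447 (5.65%) were at least 4-fold lower. Of 17 cilia genes, 14 were lower, with a median log2 ratio of -4.11. Ccdc153 had 1.08, 1.69 and 0 CPM against 1861, 1968 and 1784 CPM in the ependymal gate, which it helps to define. In all, 7 of the 17 cilia genes are genes of the gate, and 8 of the 14 lower ones are not. Rsph1, a radial spoke protein of the axoneme, had 83.7, 72.4 and 102 CPM against 729.7, 611 and 608, and Tekt1, a ciliary filament protein, 114, 113 and 123 against 347, 449 and 617. Both were nevertheless at least 4-fold above the whole of the other sham barcodes, and they were the 2 of 17 cilia genes that were. None of the 22 immune or 19 immediate early genes was past the fold against the ependymal gate, with median log2 ratios of 0.17 and -0.51. Ion transport genes were higher again (19 of 29, with Aqp4 lower), and Cldn2, Kcne2, Prr32, Mapk4, F5 and Nt5dc2 had 0 UMIs in the ependymal gate of all 3 libraries. Of the 23 junction and epithelial genes only 4 were higher here, Cldn1, Cldn2, Cgn and Crb3, with a median log2 ratio of 0.18. Of 19 secreted and carrier genes 7 were higher here, Igf2, Igfbp2, Cst3, Wfikkn2, Timp3, Ctsd and Bmp7, and Apoe was lower. Clu, Tf, Spint2, Cab39l and Calml4, higher than the whole of the other barcodes, did not pass the fold here. S100b, a calcium-binding protein of ependyma and astrocytes, had 1.89, 8.32 and 0 CPM against 3904, 6057 and 5982.

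The 3 sham libraries differed less in what a choroid plexus barcode contained than in how many they held. Over 1328 genes at a mean of at least 100 CPM, the highest library exceeded the lowest by a median of 1.22 times. Only 21 genes (1.58%) were 2-fold or more apart and 3 were 4-fold or more apart, C1qa, Rpe65 and Tmsb4x. C1qa, a complement gene of microglia, had 6.21, 66.5 and 266 CPM, and Tmsb4x, a microglia-rich actin-binding gene, 135, 440.4 and 685 CPM. Both were lower in the 510 barcodes of sub-clusters 1 to 4 described next, C1qa at 2.09, 6.23 and 3.21 CPM and Tmsb4x at 31.1, 65.5 and 119 CPM, where the libraries still differed 3.43 times.

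Rpe65 did not narrow in that way. This gene encodes the retinoid isomerohydrolase of the retinal pigment epithelium, another epithelium that recycles retinol. Its level was 14.0 CPM in sham 1, 338 CPM in sham 2 and 53.7 CPM in sham 3, and 14.6, 352 and 16.1 CPM in sub-clusters 1 to 4. Sham 2 stood far above the others, and 16 of the 21 Rpe65 UMIs of sham 3 came from 1 barcode. A UMI was present in 355 of its 478 barcodes, against 54 of 195 in sham 1 and 6 of 16 in sham 3, and the 10 highest barcodes of sham 2 held 13.5% of its Rpe65 UMIs. The other sham barcodes had 1.11, 3.72 and 3.20 CPM. Scgb1c1 and Hypk, the latter at 165, 59.6 and 81.8 CPM, also kept their spread in those sub-clusters, at 2.69 and 2.57 times, both highest in sham 1. Hypk was also highest in sham 1 in the other barcodes, at 296, 123 and 115 CPM. With 1 sum per library and no groups, none of these differences was tested.

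**Figure D4:**
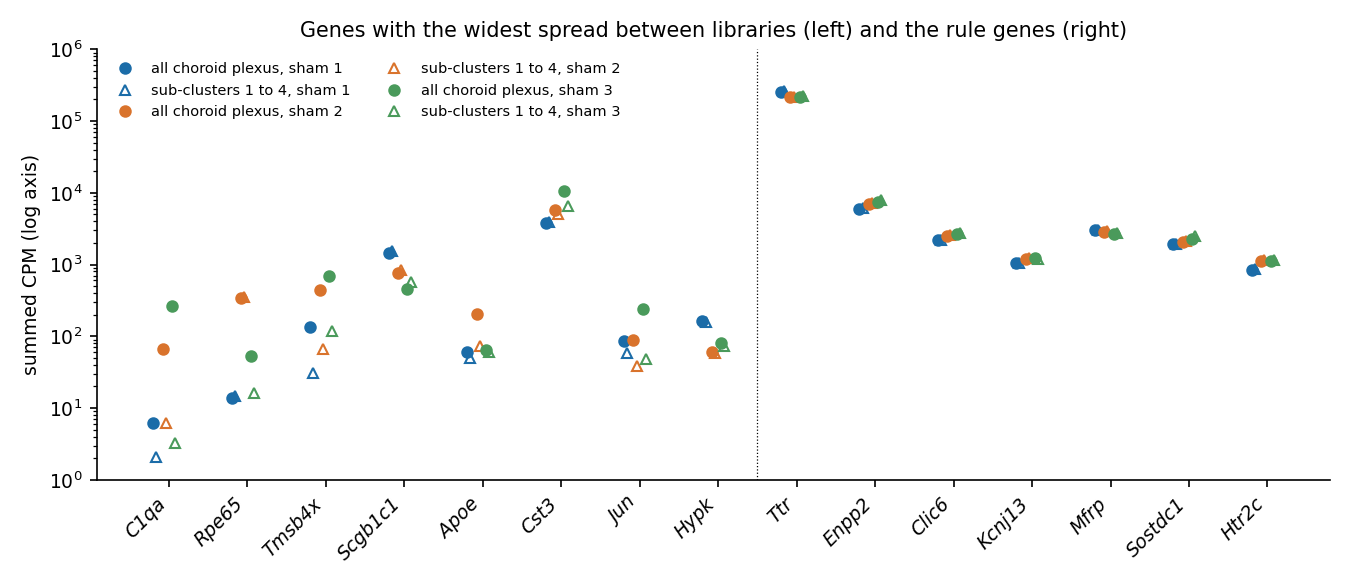
Summed CPM (log axis) of the 8 genes with the widest spread between sham libraries and of the 7 rule genes, for all choroid plexus barcodes (circles) and for sub-clusters 1 to 4 alone (triangles). Rpe65 stays high in sham 2 alone, C1qa lies low in all 3 libraries in the sub-clusters, and the rule genes hardly spread.

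The barcodes fell into 8 sub-clusters when clustered without the rule genes. Sub-clusters 1 to 4 held 510 barcodes (142, 354 and 14 of sham 1 to 3), with a median of 6 of the 6 further genes, median depths of 27480.0 to 54385 UMIs and median Ttr of 1722 to 2840.4 per 10000. None of their barcodes had a doublet score over 0.25, but 41, 48, 21 and 28 barcodes of sub-clusters 1 to 4 met the smooth muscle gate, as did 198 of all 689. Within them the differences were graded. Sub-cluster 2 was led by Igf2, at 7141 CPM against 3749 CPM in the rest, and by Slc4a5, at 133 against 77.1 CPM. Sub-cluster 3 was led by Glycam1, a mucin-like glycoprotein gene, at 238 against 98.5 CPM, and by ribosomal protein genes such as Rpl41. Sub-clusters 1 and 4 had leading genes at low levels, none over 80.9 CPM. Because the clusters were made from these genes, the values are a description.

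The other 4 sub-clusters were led by genes of other cells or were shallow. Sub-cluster 5, with 79 barcodes, was led by Tagln (6019 against 99.6 CPM), Mgp and Acta2, and 20 of its barcodes had a doublet score over the limit. Its Fos level was 807 CPM against 29.6 CPM in the rest. Sub-cluster 6, with 50 barcodes of which 45 were from sham 2, was led by Cd74, C1qa and C1qb, and 26 of its barcodes met the microglia gate. Sub-cluster 7 held 43 barcodes with a median of 746 UMIs, 29 of them from sham 1. Sub-cluster 8 held 7 barcodes of sham 2, led by the astrocyte genes Agt and Itih3, with a median Ttr of 86.9 per 10000 and Sostdc1 at 58.1 CPM against 2024. These 7 barcodes met the rule but did not carry the choroid plexus genes at the level of the rest. Summed smooth muscle markers over all choroid plexus barcodes were 2.21%, 1.91% and 2.13% of the level in smooth muscle-gated barcodes, and in sub-clusters 1 to 4 they were 0.303%, 0.437% and 0.570%. All 8 of those markers had a UMI in each library. Microglia markers were 0.367%, 1.16% and 3.09% of their own gate's level over all barcodes, and 0.268% to 0.353% in sub-clusters 1 to 4. Of the 8 microglia markers, P2ry12 was at 0 in sham 1 and none was in the others. In these 4 sub-clusters alone, every list kept its number of genes past the fold except the immune one, with 8 lower in place of 7. How far other cells' RNA set the remaining values was not tested.

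**Figure D5:**
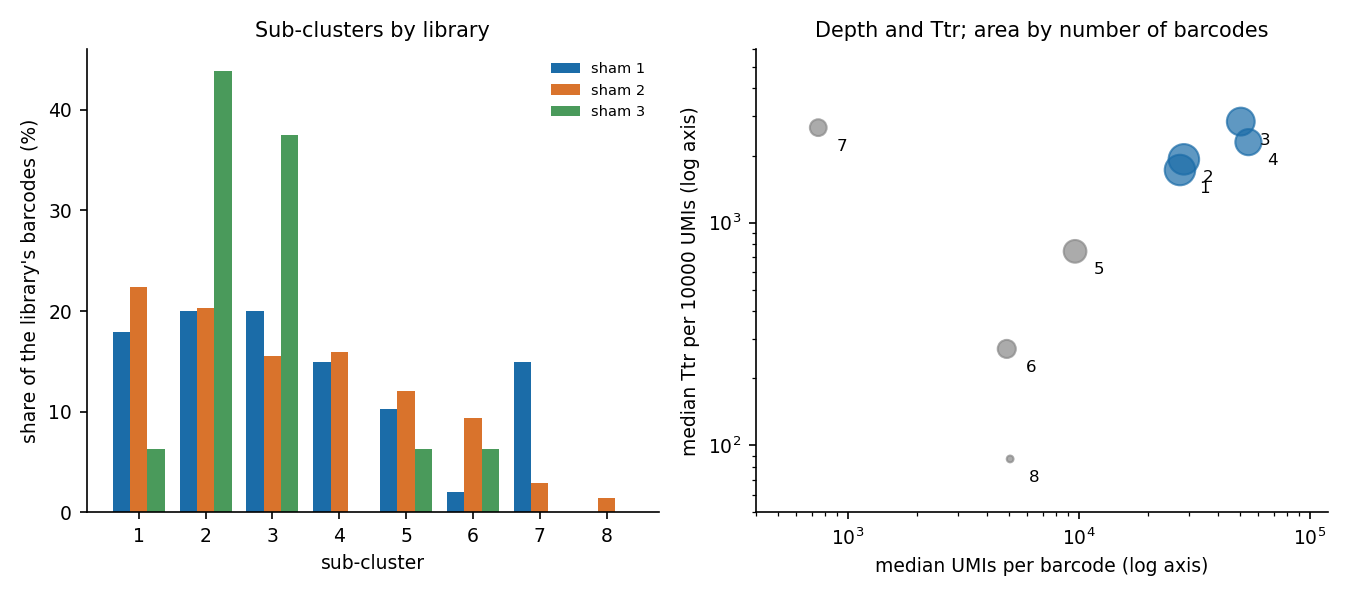
Left, share of each sham library's choroid plexus barcodes in the 8 sub-clusters (%). Right, median UMIs and median Ttr per 10000 UMIs of each sub-cluster (both log axes; area follows the number of barcodes): sub-clusters 1 to 4 (blue) lie together at high depth and Ttr, 5, 6 and 8 lie below, and 7 is shallow with high Ttr.

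Choroid plexus transcripts outside the chosen barcodes were compared between sham and infarction with counts summed over all other kept barcodes of a library, 45741565 to 64486034 UMIs each, by edgeR's quasi-likelihood test. The rule took its barcodes out of every library, so these sums hold the choroid plexus transcripts it left behind. The background of this comparison is wide: 5528 of 14491 genes tested (38.1%) were lower in infarction at an adjusted p under 0.05 and 4839 (33.4%) were higher. The 7 rule genes decided which barcodes were removed, so their values here are a description, with no test. Ttr had 59762, 155136 and 5746 UMIs in the sham libraries, against 2, 154 and 126 UMIs after infarction. That is 1307, 3173 and 109 CPM against 0.0319, 2.40 and 1.95 CPM. Enpp2 had 17.8, 50.3 and 18.5 CPM against 0.510, 0.826 and 2.20. For both genes every sham value lay above every infarction value, and how many of all genes separate in this way was not counted. Kcnj13 had 3.56, 12.2 and 0.530 CPM in sham and 0.191, 1.20 and 0.372 in infarction, so that infarction 2 lay above sham 3.

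Tests were read for the 10 genes with the highest ratios outside the rule. The sham sums tested here are also the lower side of those ratios, so the p-values are not independent of the choice of genes. Of these, Vat1l, Igfbp2, Cldn2 and Mdk fell by 2.48, 2.40, 6.11 and 3.63 on the log2 scale, with edgeR adjusted p of 0.00199 to 0.00851. Prlr could not be tested, and 4 of the remaining genes is a share near the 38.1% of all genes tested. Tbc1d9 rose by 2.51 (edgeR adjusted p = 0.000658), from 3.63, 7.85 and 4.45 CPM to 25.1, 24.4 and 20.1, but in microglia-gated barcodes alone it was at 0.79 and did not pass (edgeR adjusted p = 0.0939). F5, Folr1, Atp2b3 and Ddah1 did not pass, and Prlr was too low to be tested. Those calls depended on the setting. In microglia-gated barcodes alone Atp2b3 fell by 3.61 and Ddah1 by 2.80 (edgeR adjusted p of 0.00290 and 0.00568), with at most 10% mitochondrial UMIs Atp2b3 fell by 2.78 (edgeR adjusted p = 0.0458), and F5 passed with DESeq2 at 2.19 (adjusted p = 0.0256). Leaving out 1 library brought a pass for F5 (without sham 2, log2 3.93), Folr1 (without sham 3, -1.51) and Atp2b3 (without infarction 1, -1.77). Fewer such cells, less RNA from each and a different mix of other cells cannot be told apart in these sums. The smooth muscle gate held 3733, 3230 and 3087 of the summed barcodes in sham 1 to 3 and fewer than 10 in any infarction library. In microglia-gated barcodes alone Vat1l, Igfbp2 and Mdk fell by 5.08, 6.38 and 5.41 (edgeR adjusted p of 0.00343 to 0.0144), and Cldn2 was not among the genes tested there. How far the mix of cells set the values was not tested. With library totals in place of TMM factors the median of all genes moved from -0.13 to -0.52, and 7145 genes were lower and 3418 higher.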

How the data were processed

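The 6 droplet libraries of 3′ transcript ends were analysed as UMI counts per gene and barcode, as the authors deposited them. The submitters' processing notes name CASAVA 1.8, Cell Ranger 3.1.0 and Seurat 2.3.4. A genome build is not given in the sources used here, nor is an annotation. The members and gene lists were chosen with earlier results of these data known.

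Barcodes with at least 500 UMIs, 200 genes and at most 20% mitochondrial UMIs were kept. Doublets were scored per library with Scrublet in scanpy 1.11.5 (limit 0.25) but kept. Other barcodes went to the class with most markers, at least 4 of 8 (7 in the files for ependymal, 6 for endothelial and 4 for erythroid cells). Counts were summed per library and given as CPM. Ratios used 5 CPM added and genes at a mean of at least 10 CPM. Named genes were the 25 highest and 10 lowest by their least favourable library among genes at 50 CPM or more, the 4 most abundant of each list and any list gene past the fold. Genes named beyond this were chosen after their values were seen. Sub-clusters used 1000 variable genes, 15 components and Leiden resolution 0.5.

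Sums outside the rule were tested with edgeR 4.0.16 (quasi-likelihood, TMM, Benjamini-Hochberg) in R 4.3.3, and with DESeq2 1.42.0 as an alternative. The edgeR fit was also run on simulated counts with equal numbers of genes raised and lowered. That run cannot check the scaling of data in which so many genes differed. The labels name no separate animals, so p-values measure only the spread between these libraries, which may be technical. Some genes counted in the lists are not reported here by name.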

Additional observations from a re-analysis of the deposited data

How the results depend on the processing

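Over the alternatives for the yield, the difference between infarction and sham stayed negative, from -1.72 to -10.1 percentage points, with exact permutation p of 0.1 or 0.2. Leaving out 1 library gave -1.72 to -5.28 points, and the sign-flip test over same-numbered libraries, a replicate block, gave an exact p of 0.25 for -3.60 points. The counts of genes past the fold (414 higher, 584 lower) stayed within 1.5 times except with barcodes weighted equally, where 323 genes were lower and 322 higher; the cause was not tested. Leaving out 1 sham library gave 422 to 494 higher and 610 to 662 lower, where a call needs fewer libraries.

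Outside the rule, leaving out 1 library gave 4947 to 5312 lower and 4452 to 4889 higher genes, and DESeq2 gave 5313 and 5217. A replicate block gave 5248 lower and 4535 higher. Deviations of same-numbered libraries correlated at -0.08, 0.09 and -0.08, and those of differently numbered ones at -0.09 to 0.12. No pairing by number was seen, but so few values cannot establish its absence. With choroid plexus barcodes kept in the sums, F5 turned to -3.24 and Tbc1d9 to -1.65, as sham then includes those barcodes. Ddah1 was at -0.48 to 0.02 with 1 library left out, positive without sham 2. Among single genes, 786 alternative values kept direction and side of the threshold, 17 newly passed, 2 no longer passed and 3 turned. The limits Ttr 500, sub-clusters 1 to 4 and the fit without barcodes at Ttr 50 or more were chosen after seeing the data. Sham 3 rests on 16 barcodes, where 3 UMIs equal 7.67 CPM.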

Other observations

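Hox genes, which mark hindbrain origin, gave few UMIs in the choroid plexus barcodes. At least 1 UMI of 8 Hox genes was present in 35, 100 and 2 barcodes of sham 1 to 3 (17.9%, 20.9% and 12.5%), and a UMI of 6 forebrain genes in 2, 3 and 0. No barcode had both, but so few held a forebrain UMI that this cannot show whether the gene groups exclude each other. In microglia-gated barcodes, which are shallower, the Hox shares were 2.22%, 0.463% and 0.520%. Thinned to 2000 UMIs, the choroid plexus shares were 0.602%, 2.43% and 0% and the microglia shares 1.52%, 0% and 0.137%, so no order can be read from them. Summed Hox levels were 6.48, 8.14 and 7.67 CPM in choroid plexus and 10.9, 13.1 and 19.3 CPM in smooth muscle-gated barcodes.

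Of 16 iron, copper and metallothionein genes, Tf and the copper importer Slc31a1 were at least 4-fold higher in every sham library, and the metallothioneins Mt1 (-2.58 ± 0.43) and Mt2A (-2.76 ± 0.42) were lower. None of 26 nuclear respiratory chain genes was past the fold, with a median log2 ratio of 0.16.

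The 4 infarction barcodes that met the rule were shallow, with median depths of 3357 UMIs in infarction 2 and 3533 in infarction 3 (2 barcodes each).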
